A study of Mus musculus with 20 samples.

Results

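The 7 genes described here encode 2 peroxisome proliferator-activated receptors, Ppara and Ppard, and 5 genes of fatty acid handling, namely Angptl4, Plin2, Cpt1a, Acadl and Pdk4. They were taken by symbol from a count table of 25719 mouse genes, in which each of the 7 symbols had 1 row. Expression was measured in primary keratinocytes of 20 mice, isolated from the skin of the ear and back and enriched by cell sorting. In 10 mice, the conditional knockouts (cKO), floxed Cyp11b1 (Cyp11b1 L2/L2) was combined with K14-CreERTam, a tamoxifen-inducible Cre recombinase that the keratin 14 promoter drives in basal keratinocytes. The 10 control mice were Cre-negative Cyp11b1 L2/L2 littermates, so both the deletion and the presence of Cre separate the genotypes. All 20 mice received tamoxifen on 5 days and cells were taken on day 6. In the topical groups the drug was applied to the ear (20 µl) and the back (100 µl), and in the systemic groups it was injected into the peritoneum (100 µl of 10 mg/ml). Each of the 4 groups, topical control, topical cKO, systemic control and systemic cKO, had 5 mice. The ages of the mice are not given in the sources used here.

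Cyp11b1 encodes the last enzyme of corticosterone synthesis. PPARs are nuclear receptors that are activated by fatty acids and bind DNA together with a retinoid X receptor (RXR). Their known targets include genes for fatty acid transport, storage and oxidation, and PPAR delta is the form best known for its roles in keratinocytes. Angptl4 encodes a secreted inhibitor of lipoprotein lipase, Plin2 a coat protein of lipid droplets, and Pdk4 a kinase that switches off pyruvate dehydrogenase and so spares glucose. Cpt1a encodes the enzyme that commits long-chain fatty acids to entry into mitochondria, and Acadl a dehydrogenase of the first step of mitochondrial fatty acid oxidation. Several of these genes are also known to respond to glucocorticoids in other tissues.

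Library totals ran from 11.6 to 50.1 M counts. Of the keratinocyte markers, Krt14 averaged 43252 CPM (counts scaled to the library total), Krt5 21798 CPM and Krt10 13056 CPM, whereas Adipoq, a defining adipocyte gene, averaged 0.0031 CPM and the leukocyte gene Ptprc 0.037 CPM. Other genes of these 2 lists were higher: Lipe averaged 2.60 CPM, and Cd74 12.8 CPM with up to 30.3 CPM in systemic cKO 6. Cyp11b1 had 9 reads in 4 topical control, 7 reads in 2 topical cKO, 2 reads in 2 systemic control libraries and 4 reads in 1 systemic cKO library, so its counts were too few to check the genotype labels. One split of the libraries touches many results. Satellite-like transcripts, read from 12 predicted genes, had a summed level of 0.839 to 42.5 CPM in 14 libraries and of 79.4 to 37287 CPM in the other 6, which were all 5 systemic controls and systemic cKO 2. In the comparison of routes in controls this split cannot be told apart from the route, and in the systemic genotype comparison it nearly follows the genotype. Topical cKO 5 had the highest share of mitochondrial counts (7.49%) and the highest summed levels of the adipocyte, sebaceous gland, fibroblast and endothelial marker lists. In bulk RNA, fewer cells of a type and less RNA per cell cannot be told apart.

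Promoters of the 3 genes that passed a test in any comparison are shown first, because the PPAR binding motif is the feature by which targets of these receptors are usually recognised. The sequences are from RefSeq (GRCm38.p6) and run from 250 bases before to 50 bases after the gene start that RefSeq gives. They were found for 6 of the 7 genes, all but Angptl4. Capitals mark a match to the PPAR response element AGGTCANAGGTCA with at most 2 mismatches or to its exact half-site AGGTCA, on either strand. The Plin2 sequence lies at chr4:86670010-86670309 (minus strand), that of Cpt1a at chr19:3323051-3323350 (plus strand) and that of Ppard at chr17:28232504-28232803 (plus strand). The start of Cpt1a in RefSeq lies inside the gene interval of the annotation used for the coordinates below, so its whole window is within that interval.

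Plin2: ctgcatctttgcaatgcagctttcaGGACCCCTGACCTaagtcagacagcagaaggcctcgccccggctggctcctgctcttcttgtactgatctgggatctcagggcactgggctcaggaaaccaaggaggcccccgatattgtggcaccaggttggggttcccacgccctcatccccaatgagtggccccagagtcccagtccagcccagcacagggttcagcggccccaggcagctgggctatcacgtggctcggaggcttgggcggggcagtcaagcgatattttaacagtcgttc

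Cpt1a: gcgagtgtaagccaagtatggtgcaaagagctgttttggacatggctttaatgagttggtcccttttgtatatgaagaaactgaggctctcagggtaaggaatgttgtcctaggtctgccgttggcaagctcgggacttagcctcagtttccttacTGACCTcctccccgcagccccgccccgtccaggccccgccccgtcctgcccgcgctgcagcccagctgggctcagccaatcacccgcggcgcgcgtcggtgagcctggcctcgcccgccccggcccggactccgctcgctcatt

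Ppard: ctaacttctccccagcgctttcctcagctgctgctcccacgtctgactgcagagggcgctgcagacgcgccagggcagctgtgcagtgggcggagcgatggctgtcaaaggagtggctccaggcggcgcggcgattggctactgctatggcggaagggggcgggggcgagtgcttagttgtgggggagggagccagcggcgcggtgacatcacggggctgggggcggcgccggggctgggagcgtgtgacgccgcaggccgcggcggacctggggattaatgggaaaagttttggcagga

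The Plin2 promoter holds a full-element match with 2 mismatches at bases 26 to 38, which begins at position -225 from the gene start and contains an exact half-site at bases 33 to 38. Cpt1a holds an exact half-site at bases 157 to 162, and Ppard, printed in lower case throughout, holds neither motif in this window. Of the 6 promoters found, 1 (Plin2) held the full element and 2 (Plin2 and Cpt1a) the half-site. Those of Ppara, Pdk4 and Acadl, not printed here, held neither. The full element with at most 2 mismatches occurs in 3.86% and the exact half-site in 16.3% of 32851 mouse promoters of the same length. The glucocorticoid response element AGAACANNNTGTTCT with at most 2 mismatches, searched on both strands, was in 1.84% of them and in 0 of the 6 promoters of these genes. These matches describe the sequence and were not tested as binding sites.

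All 7 genes passed the filter on low counts and were fitted together with the other genes over all 20 libraries (edgeR quasi-likelihood test, Benjamini-Hochberg adjustment over the 12424 genes tested). Genes with an adjusted p under 0.05 were called. Levels are CPM scaled by TMM factors, errors of levels are SDs over 5 mice, and errors of log2 fold changes are standard errors (SE). Genes are compared with each other only as CPM per kilobase of exon.

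Per kilobase, Plin2 was the most abundant of the 7 genes, at 33.3 ± 20.2 CPM per kb (mean ± SD, n = 20 libraries). Acadl followed at 23.9 ± 5.596 CPM per kb, then Cpt1a at 8.11 ± 1.46 and Angptl4 at 5.52 ± 1.72 CPM per kb. Pdk4 (1.73 ± 0.84 CPM per kb) and Ppara (1.64 ± 0.23 CPM per kb) were similar, and their ranges overlapped in each of the 4 groups. Ppard came last at 0.21 ± 0.11 CPM per kb, and in each group its highest library lay below the lowest library of every other member. Plin2 exceeded Acadl in all 5 libraries of both topical groups but in 3 of 5 systemic controls, and in systemic cKO the order of the means was turned, with Acadl above Plin2 in 4 of 5 libraries. The genes also differed in how far they ranged between libraries. Plin2 spanned 14.7-fold from its lowest to its highest library and Ppard 13.4-fold, the latter on only 4 to 111 reads per library. Pdk4 spanned 6.35-fold and Angptl4 4.90-fold, whereas Acadl (2.39-fold), Cpt1a (1.92-fold) and Ppara (1.65-fold) varied little.

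**Figure D1:**
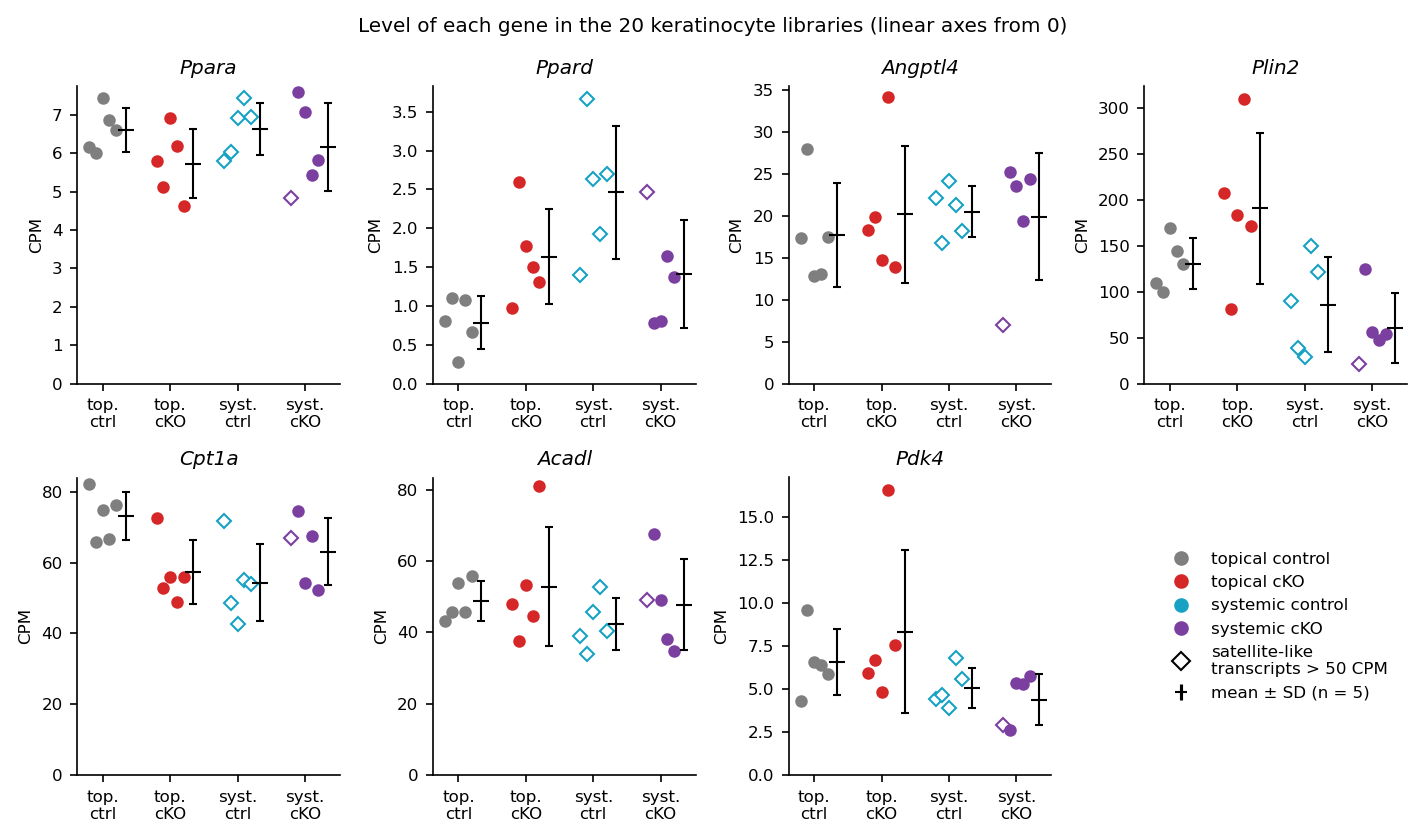
Level of each of the 7 genes in CPM (linear axes from 0), with 1 symbol per library, groups along the x axis, and the mean ± SD of 5 mice as a black bar. Open diamonds are the 6 libraries with more than 50 CPM of satellite-like transcripts. Ppard is lowest in topical controls and highest in systemic controls, Plin2 is lowest on average in systemic cKO, and topical cKO 5 is the highest point for Angptl4, Plin2 and Pdk4.

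Between genotypes, none of the 7 genes was called. With topical tamoxifen 0 of 7 passed, where 0.129% of all tested genes did, and with systemic tamoxifen 0 of 7, against 1.89% of all tested genes. The interaction of genotype and route called 0 of 7, against 0.25%. At an unadjusted p under 0.05 these counts were 2 (Ppard, Cpt1a), 1 (Ppard) and 2 (Ppard, Cpt1a), where 5.66%, 15.3% and 14% of all tested genes passed. DESeq2 called 0, 0 and 1 (Ppard), against 0.338%, 4.41% and 2.54% of all tested genes. In neither genotype comparison were the 5 libraries of the groups free of overlap for any member, against 1.4% of all genes with topical and 1.94% with systemic tamoxifen.

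Between routes more was called, in step with the genes at large. In controls 2 of 7 passed (Ppard higher and Cpt1a lower after systemic tamoxifen), where 18.3% of all tested genes passed. In cKO mice 1 of 7 passed (Plin2 lower after systemic tamoxifen), against 9.22% of all tested genes. Groups without overlap were found for 1 of 7 genes in controls (Ppard), against a background of 13.8%, and for 0 of 7 in cKO, against 7.39%. These shares are near the background, so they do not set the 7 genes apart. The comparisons share libraries with each other: each group enters a genotype and a route comparison.

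**Figure D2:**
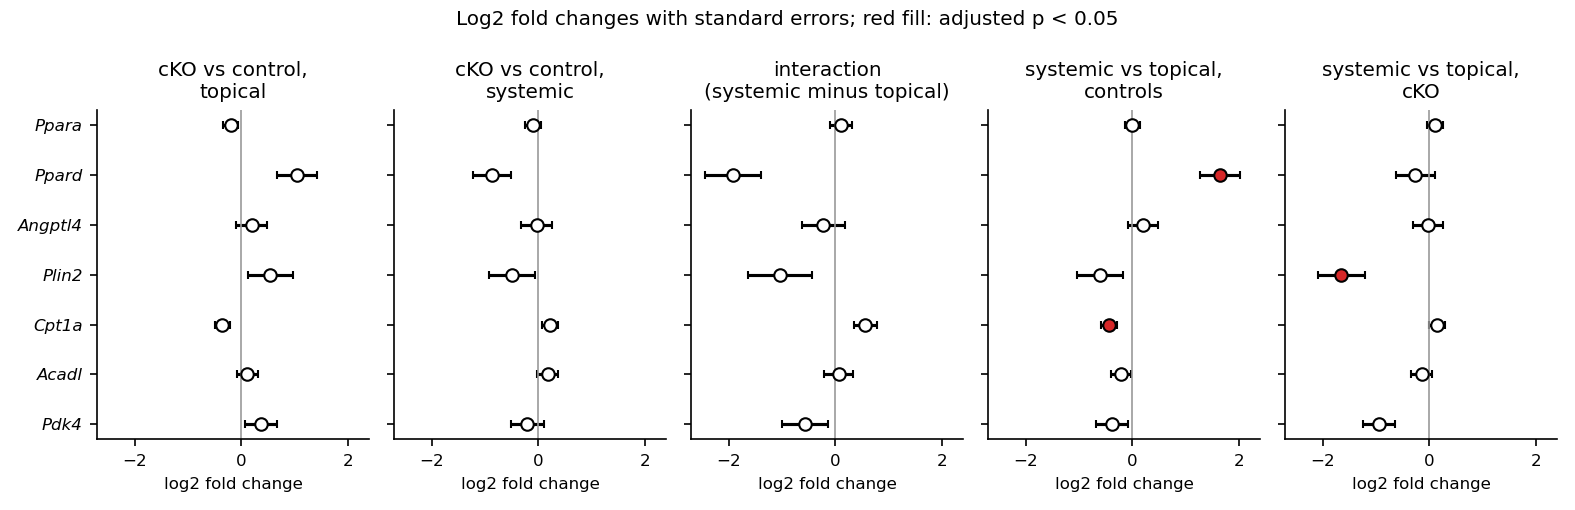
Log2 fold changes (x axes) of the 7 genes in the 5 comparisons, with bars of 1 SE; red fill marks an adjusted p under 0.05. Only Ppard and Cpt1a in the route comparison of controls and Plin2 in that of cKO are filled, and the genotype differences of Ppard point in opposite directions after topical (1.04) and systemic (-0.87) tamoxifen.

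Ppard (ENSMUSG00000002250, chr17:28232700-28301474 in GRCm38, plus strand) encodes PPAR delta. Its level in topical controls 1, 3, 5, 6 and 7 was 0.81, 1.1, 0.27, 1.1 and 0.67 CPM. In topical cKO 2, 3, 4, 5 and 7 it was 0.98, 2.6, 1.8, 1.5 and 1.3 CPM. The highest topical control thus lay just above the lowest topical cKO, and the other 4 cKO libraries were above all controls. Systemic controls 1, 3, 4, 5 and 6 had 1.4, 3.7, 2.6, 1.9 and 2.7 CPM, all above the topical controls. Systemic cKO 2, 4, 5, 6 and 7 had 2.5, 0.78, 0.81, 1.6 and 1.4 CPM, so that 3 of the 5 libraries were below all systemic controls and numbers 2 and 6 lay within their range. Systemic controls therefore averaged 2.47 ± 0.86 CPM against 0.78 ± 0.34 CPM in topical controls, which gave 1.65 on the log2 scale (SE 0.37, adjusted p = 0.0045, edgeR).

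The genotype difference of Ppard was 1.04 (log2, SE 0.38, adjusted p = 0.776) with topical and -0.87 (SE 0.36, adjusted p = 0.239) with systemic tamoxifen. The systemic value was -0.0081 with the satellite-like covariate split at 50 CPM. Without 1 library it ran from -1.14 (without systemic cKO 2) to -0.68 (without systemic control 3). The interaction, -1.91 (SE 0.52), missed the threshold at an adjusted p of 0.0956 and passed it without systemic cKO 2 (-2.18, adjusted p = 0.0196) and with DESeq2 (adjusted p = 0.0239), over a range of 0.0196 to 0.99975 in all alternatives. In cKO mice the route made a difference of -0.26 (SE 0.37, adjusted p = 0.725).

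Ppard moved with the satellite-like transcripts. It ranged from 0.27 to 2.59 CPM (median 1.09) in the 14 libraries with low satellite-like levels and from 1.40 to 3.66 CPM (median 2.55) in the 6 with high levels. Systemic cKO 2, the library with the most satellite-like transcripts, had 2.47 CPM, against 0.78 to 1.64 CPM in the other 4 systemic cKO libraries. With a covariate for satellite-like levels the route difference in controls was 0.73 (adjusted p = 0.526) on the log2 scale of that covariate and 0.52 (adjusted p = 0.984) with it split at 50 CPM, and the call was lost. All 10 fits that left out 1 library of the comparison kept it, with log2 fold changes of 1.45 to 1.81 and adjusted p-values of 0.0027 to 0.0175. Whether the satellite-like transcripts play a part in the Ppard difference was not tested, since in controls they cannot be told apart from the route.

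**Figure D3:**
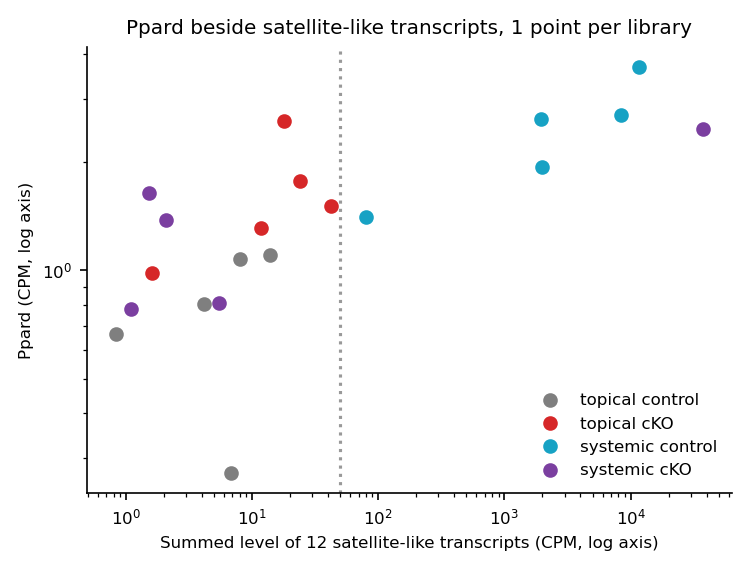
Ppard (CPM, log axis) against the summed level of 12 satellite-like transcripts (CPM, log axis), 1 point per library; the dotted line marks 50 CPM. The 6 libraries right of the line lie between 1.40 and 3.66 CPM of Ppard, and the 14 left of it between 0.27 and 2.59 CPM.

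Ppara (ENSMUSG00000022383, chr15:85734983-85802819, plus strand), the PPAR form best known from liver, was the steadiest of the 7 genes. Its group means were 6.61 ± 0.58 CPM in topical controls, 5.73 ± 0.90 in topical cKO, 6.63 ± 0.68 in systemic controls and 6.15 ± 1.15 CPM in systemic cKO. All 20 libraries lay between 4.62 and 7.60 CPM and every pair of groups overlapped. No comparison gave a log2 fold change beyond -0.20 (SE 0.15, topical cKO against control, adjusted p = 0.993). Ppara reads exceeded Ppard reads per kilobase in all 20 libraries.

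Angptl4 (ENSMUSG00000002289, chr17:33773750-33781830, minus strand), the lipoprotein lipase inhibitor, had similar means in the 4 groups. These were 17.7 ± 6.17 CPM in topical controls, 20.2 ± 8.17 in topical cKO, 20.5 ± 3.01 in systemic controls and 19.9 ± 7.56 CPM in systemic cKO. The spread within groups came from single libraries: topical cKO 5 had 34.1 CPM and topical control 3 had 27.97 CPM, whereas systemic cKO 2 had 6.96 CPM against 19.4 to 25.2 CPM in the other systemic cKO libraries. Its log2 fold changes lay between -0.23 (SE 0.40, interaction) and 0.21 (SE 0.29, route in controls), with adjusted p-values from 0.647 to 0.997. The topical genotype difference changed sign from 0.19 to -0.086 without topical cKO 5.

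Plin2 (ENSMUSG00000028494, chr4:86648386-86670060, minus strand), the lipid droplet coat gene, was lower after systemic than after topical tamoxifen in cKO mice. Topical cKO 2, 3, 4, 5 and 7 had 208, 81.1, 183.6, 309.8 and 171.6 CPM. Systemic cKO 2, 4, 5, 6 and 7 had 21.1, 124.6, 56.4, 47.4 and 54.1 CPM, so that topical cKO 3 lay below systemic cKO 4 and the other libraries kept apart. The means were 190.8 ± 82.0 and 60.7 ± 38.4 CPM, with -1.65 as the log2 fold change (SE 0.44, adjusted p = 0.0194, edgeR). Controls showed a smaller difference that did not pass: topical controls 1, 3, 5, 6 and 7 had 109.5, 99.7, 170.0, 144.7 and 129.8 CPM and systemic controls 1, 3, 4, 5 and 6 had 89.7, 39.2, 28.7, 149.4 and 121.8 CPM, which gave -0.61 on the log2 scale (SE 0.43, adjusted p = 0.337) and -0.39 without systemic control 4. The sign of the difference in controls turned with both satellite-like covariates, which in controls cannot be told apart from the route. The difference between both route effects is the interaction, -1.04 (SE 0.60, adjusted p = 0.454), which did not pass either. Between genotypes Plin2 gave 0.55 (SE 0.43, adjusted p = 0.997) with topical and -0.49 (SE 0.43, adjusted p = 0.644) with systemic tamoxifen. The first value was 0.30 without topical cKO 5. The second was -0.20 without systemic control 5, -0.28 without systemic cKO 2 and -0.94 without systemic cKO 4.

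The call for Plin2 was kept in 8 of 10 fits with a single library left out. Without topical cKO 5 the route difference in cKO was -1.40 (adjusted p = 0.0677), and without systemic cKO 6 it was -1.57 (adjusted p = 0.0518). It was -1.43 (adjusted p = 0.0430) without systemic cKO 2, which leaves 9 libraries with low satellite-like levels. With both topical cKO 5 and systemic cKO 2 left out it was -1.19 (adjusted p = 0.128), the highest p among the alternatives, which went down to 0.0020.

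Plin2 was also set beside the summed level of 8 sebaceous gland genes (Mc5r, Awat1, Awat2, Elovl3, Dgat2l6, Fads2b, Scd3 and Cidea). Of these, 7 of 8 passed the count filter. Fads2b (mean 54.0 CPM) and Elovl3 (35.4 CPM) made up most of the sum. Fads2b was highest in systemic cKO 6 and Elovl3 in topical cKO 5, and single genes were not compared with Plin2. The sum ranged from 95.3 to 212.2 CPM in topical cKO (median 106.1, highest in topical cKO 5). In systemic cKO it ranged from 52.7 to 167.5 CPM, with a higher median of 115.3 CPM. In controls it ranged from 61.2 to 188.3 CPM (median 151.2) after topical and from 36.1 to 189.6 CPM (median 95.7) after systemic tamoxifen. Across the 20 libraries Plin2 and this sum correlated at r = 0.65 (permutation p = 0.0019, adjusted p = 0.0269 over 14 relations of the 7 genes with 2 marker lists). Spearman's rho was 0.52 (permutation p = 0.0215, adjusted p = 0.150). Both permutation tests shuffled all 20 libraries regardless of group, so their p-values include differences between groups. Without the 2 libraries farthest from the median, systemic control 4 and topical cKO 5, r was 0.48. Within the 14 libraries with low satellite-like levels r was 0.30 and within the other 6 it was 0.83, and for deviations from the group means it was 0.75. The relation with the adipocyte list was near 0 (r = 0.16, permutation p = 0.503), and the adipocyte sum stayed between 1.37 and 8.14 CPM. The immune and keratinocyte sums separated the cKO groups without overlap, as did the levels of 7.39% of all tested genes. The immune sum was 15.1 to 31.4 CPM in systemic against 7.64 to 12.3 CPM in topical cKO. It was mostly Cd74, which averaged 12.8 CPM, while every other gene of that list averaged at most 0.56 CPM. The keratinocyte sum was 73109 to 83890 CPM in systemic against 86575 to 104941 CPM in topical cKO. The part of sebaceous gland, immune and other cells in the Plin2 difference was not tested.

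**Figure D4:**
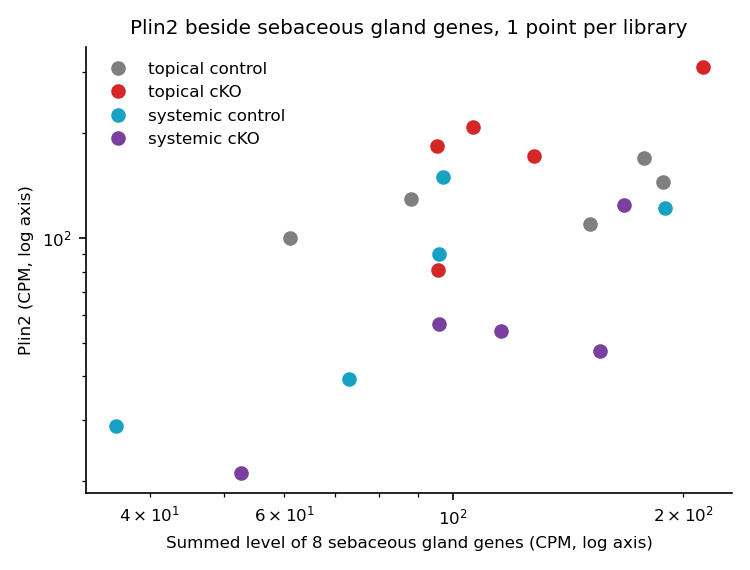
Plin2 (CPM, log axis) against the summed level of 8 sebaceous gland genes (CPM, log axis), 1 point per library. Topical cKO 5 is at the top right with 309.8 CPM of Plin2, and 4 of the 5 systemic cKO libraries lie at or below 56.4 CPM of Plin2 while their sebaceous sums run from 52.7 to 155.5 CPM.

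Pdk4 (ENSMUSG00000019577, chr6:5483351-5496309, minus strand), the pyruvate dehydrogenase kinase gene, resembled Plin2 in its order of groups. Topical cKO 2, 3, 4, 5 and 7 had 5.95, 6.69, 4.85, 16.6 and 7.58 CPM, and systemic cKO 2, 4, 5, 6 and 7 had 2.91, 2.62, 5.38, 5.31 and 5.75 CPM. One library, topical cKO 5, stood far above the rest, and the remaining topical cKO libraries overlapped with systemic cKO. That library also had the highest sums of fibroblast (32.3 CPM), endothelial (14.4 CPM) and adipocyte genes (8.14 CPM, against 2.10 to 4.34 CPM in the other topical cKO libraries), although Adipoq itself averaged 0.0031 CPM; the part of other cells in its Pdk4 level was not tested. The route difference in cKO was -0.94 (SE 0.30, adjusted p = 0.0533), just short of the threshold, and -0.51 (adjusted p = 0.267) without topical cKO 5. It passed without topical cKO 2 (-1.05, adjusted p = 0.0487) and without topical cKO 4 (-1.08, adjusted p = 0.0309). Controls averaged 6.56 ± 1.92 CPM after topical and 5.06 ± 1.15 CPM after systemic tamoxifen (log2 fold change -0.37, SE 0.30, adjusted p = 0.416). The genotype differences were 0.37 (SE 0.30) and -0.21 (SE 0.31), and the first turned to -0.068 without topical cKO 5.

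Cpt1a (ENSMUSG00000024900, chr19:3322334-3385733, plus strand), the gate of long-chain fatty acids into mitochondria, ran opposite to Ppard across the groups. Topical controls 1, 3, 5, 6 and 7 had 82.1, 65.9, 74.9, 66.6 and 76.4 CPM, and topical cKO 2, 3, 4, 5 and 7 had 72.6, 52.9, 55.9, 48.9 and 55.9 CPM. All topical cKO libraries except number 2 lay below the lowest topical control. Systemic controls 1, 3, 4, 5 and 6 had 71.7, 48.5, 42.7, 55.2 and 53.8 CPM, with number 1 inside the range of the topical controls and the other 4 below it. Systemic cKO libraries ranged from 52.4 to 74.5 CPM. Systemic controls averaged 54.4 ± 10.9 CPM against 73.2 ± 6.88 CPM in topical controls, or -0.43 on the log2 scale (SE 0.15, adjusted p = 0.0496, edgeR). This call was marginal and did not survive in 9 of 10 fits with a single library omitted, where the adjusted p reached 0.131 without systemic control 4; it held without systemic control 1. With the satellite-like covariates the value was -0.30 (adjusted p = 0.556) or -0.53 (adjusted p = 0.899).

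The genotype differences of Cpt1a were -0.35 (SE 0.15, adjusted p = 0.799) with topical and 0.21 (SE 0.15, adjusted p = 0.537) with systemic tamoxifen, and their difference, 0.57 (SE 0.21), had an adjusted p of 0.215. Over the 20 libraries Cpt1a and Ppard correlated at r = -0.68 (permutation p = 8.5e-04, adjusted p = 0.018 over the 21 pairs of the 7 genes). Spearman's rho was -0.74 (permutation p = 3.4e-04, adjusted p = 0.0071). Leaving out topical control 5 and systemic control 3, the 2 libraries farthest from the Ppard median, gave r = -0.64. Within the 14 libraries with low and the 6 with high satellite-like levels r was -0.65 and -0.68. The split does not hold those levels fixed. Within the 14 libraries the log2 satellite-like level correlated with Cpt1a at -0.63 and with Ppard at 0.40, and within the 6 at -0.27 and 0.79. For deviations from the group means, Cpt1a and Ppard had r = -0.41, which was not tested. The permutations shuffled all 20 libraries regardless of group, so their p-values include differences between groups. No other pair of the 7 genes passed the adjustment; next came Pdk4 with Plin2 (r = 0.58, permutation p = 0.0073, adjusted p = 0.0763; rho = 0.56, adjusted p = 0.122). Angptl4 with Pdk4 had r = 0.41 (permutation p = 0.0783) and turned to -0.20 without systemic cKO 2 and topical cKO 5.

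Acadl (ENSMUSG00000026003, chr1:66830839-66863277, minus strand), the long-chain acyl-CoA dehydrogenase gene, overlapped between all groups. Its means were 48.8 ± 5.57 CPM in topical controls, 52.8 ± 16.8 in topical cKO, 42.3 ± 7.24 in systemic controls and 47.7 ± 12.8 CPM in systemic cKO. The wide spread in the cKO groups came from topical cKO 7 (81.0 CPM) and systemic cKO 4 (67.4 CPM). No log2 fold change exceeded 0.21 in size (route in controls, -0.21, SE 0.19, adjusted p = 0.489).

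The setting of these genes was read from 8 lists covering PPAR receptors with their partners, fatty acid uptake, mitochondrial and peroxisomal oxidation, ketone bodies, the pyruvate dehydrogenase complex, lipid droplets and lipoprotein lipase. They held 99 other genes, of which 81 passed the count filter. With topical tamoxifen the genotype called 0 of these 81 genes, 6 (7.41%) at an unadjusted p under 0.05, near the 5.66% of all tested genes, and DESeq2 called 1, where it called 42 of all 12424 genes. With systemic tamoxifen it called 2 (2.47%), Slc25a20 (higher) and Dgat1 (lower), against 1.89% of all tested genes. The interaction called 1 (1.23%), Slc25a20, against 0.25% of all tested genes. Between routes 15 of 81 (18.5%) were called in controls, 5 higher and 10 lower, and 5 of 81 (6.17%) in cKO, 3 higher and 2 lower. Apart from the interaction, whose share rests on 1 gene, these shares are close to the backgrounds given above for all genes. The median log2 fold change of the 81 genes was -0.22 for the route in controls and -0.056 in cKO, where the median of all tested genes was 0.0008 and -0.013.

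Slc25a20, the carnitine-acylcarnitine carrier that takes up the product of Cpt1a at the inner mitochondrial membrane, passed in 3 comparisons. Its group means were 15.4 ± 1.10 CPM in topical controls, 12.5 ± 1.20 in topical cKO, 10.99 ± 1.10 in systemic controls and 14.9 ± 1.75 CPM in systemic cKO. With systemic tamoxifen every cKO library (12.4 to 16.4 CPM) lay above every control library (9.45 to 11.9 CPM), with a difference of 0.44 on the log2 scale (SE 0.11, adjusted p = 0.0419). With topical tamoxifen every cKO library (11.4 to 14.5 CPM) lay below every control library (14.6 to 17.3 CPM), for -0.29 (SE 0.11, adjusted p = 0.795). The interaction was 0.73 (SE 0.16, adjusted p = 0.0499) and the route difference in controls -0.48 (SE 0.11, adjusted p = 0.0051). The systemic genotype call was lost in 9 of 10 fits without 1 library (it held without systemic cKO 2) and with the satellite-like covariates (0.35, adjusted p = 0.976, and 0.17, adjusted p = 0.99997). Dgat1, an enzyme of triglyceride synthesis, averaged 16.1 ± 3.44 CPM in systemic controls and 10.4 ± 1.17 CPM in systemic cKO (log2 fold change -0.63, SE 0.16, adjusted p = 0.0444), and lost its call in 7 of 10 such fits, all but those without systemic control 1, systemic control 4 or systemic cKO 2. The interaction of Slc25a20 lost its call in 17 of 20 fits without 1 library, with adjusted p-values up to 0.110.

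Among the mitochondrial oxidation genes (22 listed, 21 tested), Acaa2 (126.8 CPM per kb), Etfb (55.3), Etfa (51.3) and Hadh (48.7 CPM per kb) were the most abundant. In controls 1 was higher after systemic tamoxifen, Cpt1c, and 3 were lower, Cpt1a, Slc25a20 and Acads. In cKO Hadhb was the 1 called gene (52.8 ± 7.65 against 85.0 ± 25.1 CPM, log2 fold change 0.69, SE 0.17, adjusted p = 0.0122). Cpt1c, the brain-type relative of Cpt1a, averaged 0.95 ± 0.47 CPM in topical controls, 4.49 ± 1.75 in topical cKO, 2.97 ± 0.92 in systemic controls and 2.96 ± 1.962 CPM in systemic cKO. Its route difference in controls was 1.60 (log2, SE 0.47, adjusted p = 0.0209). The larger difference between topical cKO and control, 2.16 (SE 0.47), had an adjusted p of 0.0818, although every topical cKO library (2.31 to 7.06 CPM) was above every topical control (0.27 to 1.52 CPM); this gene was singled out after its values were seen. Together, 5 of the 81 genes (6.17%) had no overlap in the topical genotype comparison, against 1.4% of all tested genes: Cpt1c and Ppargc1a were higher in cKO, and Acsl1, Slc25a20 and Crot were lower. None of the 5 was called there. In the systemic genotype comparison the share without overlap was 2.47%, against 1.94% of all tested genes. It was 13.6% against 13.8% for the route in controls, and 3.70% against 7.39% for the route in cKO.

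Fatty acid uptake and activation genes (17 listed, 12 tested) were led by Fabp5 (131.7 CPM per kb), Ucp2 (75.3), Slc27a3 (62.4) and Acsl5 (28.1 CPM per kb). In controls Slc27a1 was higher after systemic tamoxifen, and Slc27a4, Acot1 and Acot2 were lower. Slc27a4, the fatty acid transport protein of the epidermal barrier, averaged 70.3 ± 19.5 CPM in topical and 27.4 ± 14.3 CPM in systemic controls (log2 fold change -1.35, SE 0.42, adjusted p = 0.0303). This call was lost in 4 of 10 fits without 1 library. The sign turned with the satellite-like covariate split at 50 CPM, which in controls is the same as the route. Acot1 and Acot2 are near-identical copies whose reads may be split between them, so their values are uncertain. In cKO Acsl1, which activates long-chain fatty acids, was higher after systemic tamoxifen, with every systemic cKO library (211.0 to 308.8 CPM) above every topical cKO library (85.6 to 132.6 CPM). This difference of 1.08 in log2 (SE 0.17, adjusted p = 3.9e-04) was accompanied by 0.17 (SE 0.17, adjusted p = 0.521) in controls, and the interaction, 0.91 (SE 0.24), had an adjusted p of 0.0916.

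Lipid droplet genes (15 listed, 10 tested) were led by Dgat2 (58.4 CPM per kb), Plin3 (43.6), Plin2 (33.3) and Mgll (19.5 CPM per kb). Plin3 and Abhd5, the coactivator of the droplet lipase, were lower in systemic than in topical controls and Dgat1 was higher. In cKO Plin2 was lower, while Dgat2, the other triglyceride synthase, was higher, at 292.2 ± 143.6 CPM after systemic and 107.4 ± 23.5 CPM after topical tamoxifen (log2 fold change 1.44, SE 0.33, adjusted p = 0.0071). Plin1, Plin4, Plin5, Cidec and G0s2 did not reach the count filter.

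The ketone body list (5 of 5 tested) held the 1 gene called in both route comparisons in addition to Acot1. Bdh1, which interconverts the main ketone bodies, averaged 20.2 ± 4.82 and 7.78 ± 3.15 CPM in topical and systemic controls and 24.3 ± 3.86 and 10.1 ± 2.23 CPM in topical and systemic cKO. The log2 fold changes were -1.38 (SE 0.23, adjusted p = 4.2e-04) in controls and -1.26 (SE 0.22, adjusted p = 9.3e-04) in cKO, from separate libraries. With the satellite-like covariates the value in controls was -0.85 (adjusted p = 0.112) or -0.66 (adjusted p = 0.945). In controls the covariate split at 50 CPM is the same as the route, so that fit cannot tell them apart. The call in cKO held in all 20 alternatives tried. In cKO, where 4 of 5 systemic libraries had low satellite-like levels, every systemic library (6.61 to 12.6 CPM) lay below every topical one (20.4 to 30.3 CPM). Oxct1 (84.6 CPM per kb) and Acat1 (22.1 CPM per kb) were more abundant than Bdh1 (4.003 CPM per kb).

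The receptor list (15 listed, 14 tested) was led by Hdac3 (12.7 CPM per kb), Rxra (6.82) and Med1 (1.86 CPM per kb). Peroxisomal genes (13 listed, 11 tested) were led by Scp2 (26.2 CPM per kb), Acaa1a (18.7), Hsd17b4 (14.998) and Abcd3 (14.4 CPM per kb).

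In the pyruvate dehydrogenase list (11 of 11 tested) Pdha1 (25.7 CPM per kb), Pdhb (23.8), Dld (9.47) and Pdk3 (9.21 CPM per kb) were the most abundant, all above Pdk4. Pdhb, a subunit of the complex, was the 1 gene called, and was higher in systemic controls (80.8 ± 4.24 against 110.1 ± 9.93 CPM, log2 fold change 0.45, SE 0.13, adjusted p = 0.0170). In the lipoprotein lipase list (8 listed, 4 tested) Angptl4 (5.52 CPM per kb) was ahead of Lipg (3.19), Lpl (0.91) and Lmf1 (0.35 CPM per kb), and Lipg was lower in systemic controls (log2 fold change -0.70, SE 0.24, adjusted p = 0.0450). Of the 15 calls in controls, 5 (Acot1, Slc25a20, Bdh1, Pdhb and Abhd5) held without any single library, and 10 were lost in 1 or more such fits; Cpt1c was lost without systemic control 6 (adjusted p = 0.0593), and the others in 1 to 8 of 10. Of the 5 calls in cKO, 4 (Acsl1, Hadhb, Bdh1 and Dgat2) held and Acot1 was lost in 7 of 10. Of the calls in controls, the satellite-like covariate left 1 on the log2 scale and 0 with the split at 50 CPM, which in controls is the same as the route.

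**Figure D5:**
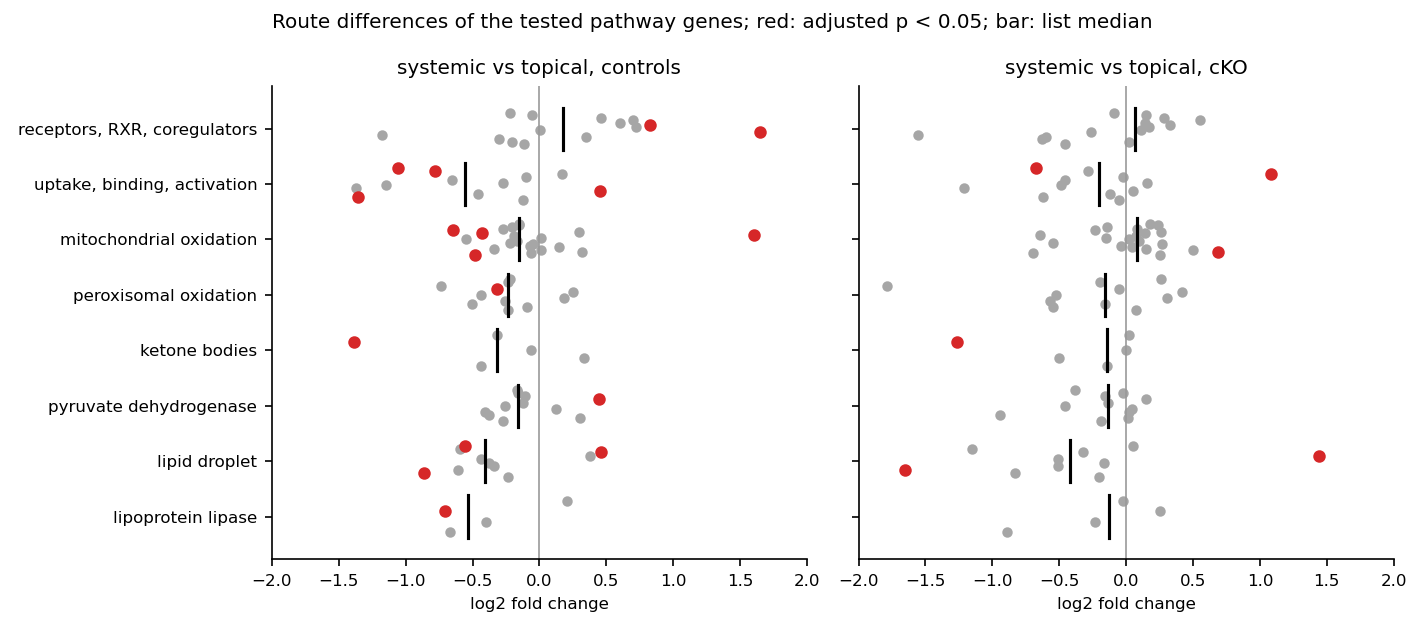
Log2 fold changes (x axes) of the tested genes of the 8 lists, the 7 described genes included, for systemic against topical tamoxifen in controls (left) and cKO (right), 1 point per gene; red points have an adjusted p under 0.05 and black bars are list medians. In controls 7 of the 8 medians are below 0, and the red points include Bdh1 at -1.38 and Ppard at 1.65.

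Genes whose pattern over the 20 libraries was most like that of each member were named by Pearson correlation of log2 CPM, among tested genes averaging 5 CPM or more, as a description. For Plin2 these were Mgst1 (r = 0.94), Idh1 (0.93) and Far2 (0.93), and the correlations of deviations from the group means were 0.95, 0.88 and 0.94. Ppard was closest to Pitpnm1 (0.91), Plxna1 (0.91) and Ep400 (0.90), with 0.88, 0.81 and 0.84 for the deviations. Cpt1a was closest to Mcur1 (0.90), Hectd3 (0.85) and Mycl (0.84). Acadl was closest to Psme2 (0.84), Tmem70 (0.83) and Sar1a (0.83), and Pdk4 to Usp1 (0.80), Capns1 (0.77) and Phykpl (0.77). The weakest likenesses were those of Angptl4, with Cyp2s1 (0.76), Klf10 and Rprd1b (0.69 each), and of Ppara, with Hdhd2 (0.69), Actr8 (0.68) and Dhrs3 (0.67). None of these 21 genes belongs to the 8 lists.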

How the data were processed

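Total RNA of sorted keratinocytes from 20 mice was made into SmartSeq II libraries and sequenced on a NovaSeq instrument, per the labels' protocols. The authors deposited unnormalised counts of reads for 25719 genes. STAR, featureCounts and the builds GRCm38 and mm10 are named in the submitters' processing notes. Annotation and strand setting are not given in the sources used here. Samples were grouped by genotype and route from the labels, and no deposited per-sample column was left out (0 not used). Symbols were matched to GENCODE vM21 for coordinates and exon length, and 0 bases of the members' exons overlapped another gene.

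The counts were analysed with edgeR 4.0.16 in R 4.3.3: TMM normalisation, filterByExpr with a minimum count of 10 and a minimum total of 15, which left 12424 genes, and a robust quasi-likelihood fit of all 20 libraries with 1 coefficient per group. Tests were two-sided and adjusted by the Benjamini-Hochberg method over all genes tested, with a call at an adjusted p under 0.05. Depth was 11.6 to 50.1 M counts per library. Molecular identifiers are not mentioned in the labels, so reads need not be separate molecules. Marker sums use CPM by library total. On simulated data in which 200 of 12424 genes had a log2 change of 1.5, 170 were called in the systemic genotype comparison, with 8 unchanged genes. Permutation tests of correlations (scipy 1.17.1) used 100000 permutations, which shuffled all libraries regardless of group.

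The members and lists were chosen with earlier results of these data known. Named by rule were the 7 members, Cyp11b1, keratinocyte markers, up to 8 called list genes per comparison and direction, up to 4 of the most abundant genes of each list, and the 3 genes most correlated with each member. Alternatives were DESeq2 1.42.0 and its size factors, all genes with a count, only the groups compared, a block for the number in the sample name, covariates for sex, satellite-like and mitochondrial transcripts, and leaving out libraries. The numbers in the sample names were not treated as pairs, since same-numbered libraries did not deviate together throughout. Some genes that the rule names are not reported here.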

Additional observations from a re-analysis of the deposited data

Results flagged for a closer look

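Of 100 groups of 5 libraries tested over 25 genes, 8 held a library far from the other 4, with a gap of over 0.71 of the whole range of the group. Chance alone marks about 1 in 20 groups, so this number is near what chance gives. Among the 7 genes described first, this was so for Pdk4, the pyruvate dehydrogenase kinase gene, with 16.6 CPM in topical cKO 5 against 4.85 to 7.58 CPM in the other topical cKO libraries. The same library had the highest mitochondrial share (7.49%) and the highest sums of sebaceous gland (212.2 CPM), fibroblast (32.3 CPM), endothelial (14.4 CPM) and adipocyte genes (8.14 CPM); their part in the Pdk4 value was not tested.

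Bdh1, the ketone body dehydrogenase gene, was high in systemic control 1 (13.3 CPM against 5.25 to 7.01 CPM), and so was Acsl1 (260.9 CPM against 162.0 to 188.9 CPM). Systemic control 1 is also the systemic control with the lowest level of satellite-like transcripts (79.4 CPM). Acads, the short-chain dehydrogenase gene, was low in topical control 5 (4.44 CPM against 8.20 to 9.57 CPM) and in systemic cKO 2 (4.23 CPM against 7.65 to 8.51 CPM). Slc27a1, a fatty acid transport gene, was low in topical control 5 (20.9 CPM against 30.6 to 34.1 CPM). Acot1 was low in topical control 3 (11.7 CPM against 16.1 to 17.9 CPM). Slc25a20 was high in topical control 6 (17.3 CPM against 14.6 to 15.4 CPM).

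The effect of genotype on Slc25a20, the carnitine-acylcarnitine carrier gene, differed between routes by the interaction test (log2 difference 0.73, adjusted p = 0.0499, edgeR). That call was lost in 17 of 20 fits that left out 1 library.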

How the results depend on the processing

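Counts below are of genes at an adjusted p under 0.05. The covariates for satellite-like levels over 50 CPM and for the mitochondrial percent, and leaving out topical cKO 5 and systemic cKO 2 together (the joint omission below), were chosen after seeing the data. Of the 7 members, none was called between genotypes with topical tamoxifen in any alternative, and 1 was called with systemic tamoxifen under the mitochondrial covariate. In the interaction 1 was called with DESeq2, the mitochondrial covariate and the joint omission, and 0 to 1 without 1 library (1 without systemic cKO 2). For the route in controls 1 was called with all genes with a count, only the groups compared and the joint omission, 0 with either satellite-like covariate, and 1 to 2 without 1 library. For the route in cKO 2 were called with DESeq2, the replicate block and the mitochondrial covariate, 0 with all genes with a count and the joint omission, and 0 to 2 without 1 library.

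Of the 81 other list genes, the topical genotype comparison called 1 with DESeq2 and with only the groups compared. The systemic one called 0 with all genes with a count, only the groups compared, the replicate block and both satellite-like covariates, 7 with the mitochondrial covariate, 4 with the joint omission, and 0 (without systemic control 3) to 4 (without systemic cKO 2) without 1 library. The interaction called 5 with DESeq2, 4 with the mitochondrial covariate, 2 with the joint omission, 0 with all genes with a count, the replicate block and both satellite-like covariates, and 0 to 3 without 1 library (3 without systemic cKO 2). The route in controls called 9 with all genes with a count, 1 and 0 with the satellite-like covariates, and 6 (without systemic control 3) to 17 without 1 library. The route in cKO called 10 with DESeq2 and the mitochondrial covariate, 8 with the replicate block and the sex covariate, 3 with only the groups compared, and 4 to 11 without 1 library (11 without systemic cKO 4).

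Signs turned only for differences that had not passed, or under the covariate split at 50 CPM. Without topical cKO 5 the topical genotype difference was -0.086 for Angptl4 (up to 0.42 without other libraries) and -0.068 for Pdk4 (up to 0.54), and with the joint omission -0.085 and -0.067. Acadl ranged there from -0.094 (without topical cKO 7) to 0.21 and was -0.050 with the replicate block. Angptl4 with systemic tamoxifen ranged from -0.13 to 0.18 without 1 library, and was 0.10 with the replicate block and 0.18 with the joint omission. In the interaction Angptl4 ranged from -0.45 to 0.054 (joint omission 0.26) and Acadl from -0.094 to 0.27 (joint omission -0.0025), and Ppara was -0.044 and -0.25 with the satellite-like covariates. For the route in controls Ppara ranged from -0.039 to 0.049, and was -0.015 with all genes with a count and -0.068 with the replicate block. Under the covariate split at 50 CPM that route difference was 0.32 for Pdk4, 1.14 for Plin2 (0.24 on the log2 scale), 1.17 for Slc27a4, 0.52 for Acot2, 0.30 for Acads and 0.097 for Lipg. For the route in cKO Angptl4 ranged from -0.12 to 0.26 (joint omission 0.47, split covariate 0.19) and Acadl from -0.30 to 0.062. In controls the covariate split at 50 CPM is the same variable as the route, and the log2 covariate nearly so, which leaves little to estimate. The cause of the other changes was not tested.

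Same-numbered libraries had correlations of -0.31 to 0.51 in their deviations from the group means, so the numbers were not taken as pairs. With the replicate block the genes called among all tested went from 16 to 9, 235 to 288, 31 to 0, 2277 to 2183 and 1145 to 937 in the order genotype topical, genotype systemic, interaction, route in controls and route in cKO. Over all genes DESeq2 called 42, 548, 315, 2775 and 1543. The satellite-like covariates left 0 and 0 in the systemic genotype comparison, 0 and 0 in the interaction, and 118 and 1 for the route in controls. The fit of only the groups compared called 35 in the systemic genotype comparison, the mitochondrial covariate 1320 there and 364 in the interaction, and the joint omission 776, 293 and, for the route in cKO, 717. The mitochondrial covariate called 3496 for the route in controls and the sex covariate 49 in the interaction. Low counts limit Ppard most, with 4 to 111 reads per library. The tests planned for members below the count filter were not run, since all 7 passed it, and the interaction has no fit of only the groups compared, since it uses all 4.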
